A study of Mus musculus with 12 samples.

Results

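The genes described here encode the interleukin-12 (IL-12) cytokine family, interleukin-6 (IL-6) and the receptor chains of IL-6 and IL-27, in mouse macrophages polarized in culture. The members were the rows of the expression table whose symbol was *Il12a*, *Il12b*, *Il23a*, *Il27*, *Ebi3*, *Il6*, *Il27ra*, *Il6ra* or *Il6st*. They were chosen by name, with earlier results of these data known. The members are 9 of 23863 genes in the table. Of them 8 had a mean of at least 1 FPKM (fragments per kilobase of transcript, scaled to the mapped reads of the library) over all libraries and were among the 10137 genes tested, and *Il23a* did not reach that level.

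Cytokines of the IL-12 family are built from an alpha chain and a partner that resembles a soluble receptor. IL-12 joins the chains encoded by *Il12a* (p35) and *Il12b* (p40), IL-23 joins the chain of *Il23a* (p19) to the same p40, and IL-27 joins the chains of *Il27* (p28) and *Ebi3*. Macrophages release them after contact with microbial products and so steer T and NK cells. IL-6 binds its own receptor chain, encoded by *Il6ra*, and IL-27 binds the chain encoded by *Il27ra*, and both signal through the shared chain gp130, encoded by *Il6st*, to JAK kinases and STAT factors.

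The RNA came from macrophages grown out of the bone marrow of C57BL/6 mice aged 6 to 8 weeks, either wildtype or *Mirc11-/-* (mirn23a-/-), which lack the miR-23a cluster in all cells of the animal as far as the labels say. Marrow was grown for 7 days with 15% L929 conditioned medium, a source of M-CSF, and replated, and the cells were then polarized for 24 h. M1 cells received 100 ng/ml LPS with interferon gamma, given as 50 ng/ml in the protocol and as 10 ng/ml in the treatment field of the labels, and M2 cells received 20 ng/ml IL-4 and 20 ng/ml IL-13. The 12 libraries form 4 groups of 3, namely wildtype M1, *Mirc11-/-* M1, wildtype M2 and *Mirc11-/-* M2, and no unstimulated macrophages were included. A gene that is higher in M1 may therefore be raised in M1 or lowered in M2.

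Each title carries a number, which an M1 and an M2 library of the same genotype share (Wt2260 to Wt2262 in wildtype and Ako2271 to Ako2273 in *Mirc11-/-*). The labels leave the number unexplained, and nothing in them ties the 3 libraries of a group to different mice, so the p-values may measure only technical spread. Because the genotypes share no number, genotype and whatever the number marks cannot be told apart. For 6 libraries (Wt2261, Wt2262 and Ako2273, M1 and M2 each) the treatment field names the other polarization. Groups followed the titles. The range of *Il12b* was 45.5 to 71.0 FPKM in libraries titled M1 with such a conflict and 60.7 to 86.9 FPKM in those without. In libraries titled M2 it reached at most 0.0937 FPKM with the conflict and 0.0758 FPKM without. As *Il12b* is itself a member, genes outside the members are given too. *Nos2* had 938 to 1630 FPKM in all libraries titled M1 and at most 2.26 FPKM in those titled M2. *Mrc1* had at most 0.403 FPKM in all libraries titled M1 and 230 to 301 FPKM in those titled M2.

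The libraries had similar depth and a macrophage profile. Read from how finely low FPKM values are spaced, their depth was 0.795 to 1.27 times that of library Wt2260M1, and the absolute depth is unknown. Macrophage markers summed to between 10469 and 12955 FPKM in every library, most of it *Lyz2*, with group means from 8799 to 10301 FPKM. *Cd3e*, a defining marker of T cells, *Flt3*, of dendritic cells, and 4 or 5 of 7 neutrophil markers stayed under 1 FPKM in all libraries of each group. Other genes of these marker lists were higher. *Cd4* averaged 11.7 FPKM in wildtype M2 libraries, and *Ccr7* (dendritic cell list) 16.7 FPKM and *S100a8* (neutrophil list) 56.8 FPKM in wildtype M1 libraries. In RNA from whole cultures, fewer cells of a type and less RNA per cell cannot be told apart.

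The deleted cluster lies on chromosome 8 and gives rise to miR-23a-3p, miR-27a-3p and a copy of miR-24-3p, which bind messenger RNAs mainly through the seed. They are printed 5′ to 3′ from RefSeq (GRCm38.p6) to show which letters a target site must match, with bases 2 to 8, the seed, in capitals. No seed is shared between them. *Mir23a* and *Mir24-2* were listed at 0 in all 12 libraries and *Mir27a* in 11, with 101.5 FPKM in Wt2261M1, so these values do not check the deletion.
miR-23a-3p: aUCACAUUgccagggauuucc
miR-27a-3p: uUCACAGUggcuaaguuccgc
miR-24-3p: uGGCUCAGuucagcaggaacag

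Sites that pair with bases 2 to 8 of a seed were searched in the longest annotated 3′ UTR of each member (GENCODE M21). A site was present in 3 of the 9 members, and 40.5% of the 9438 tested genes with a 3′ UTR hold at least 1. *Il6ra* holds an 8mer (a match followed by A) for miR-23a-3p, *Il6st* a 7mer for miR-23a-3p and *Il23a* a 7mer for miR-27a-3p. Each is printed with the bases around it and the site in capitals, since these are the members that the deleted microRNAs could pair with by this rule.
Il6ra: agcagtttttaAATGTGAAtgatgacccc
Il6st: gtaagcaggacAATGTGAcgtgccagaaa
Il23a: ggcatcgagaaACTGTGAgaaaacccaga
A match of letters is not a measured binding site. The 3′ UTRs of *Il12a*, *Il12b*, *Il27*, *Ebi3*, *Il6* and *Il27ra* held no such letters.

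The members fell into separate orders of level in M1 and M2 cells. In wildtype M1 cells *Ebi3* (100.5 FPKM) and *Il6* (95.4 FPKM) were the most abundant and their ranges overlapped, followed by *Il12b* (59.1 FPKM), *Il27* (28.1 FPKM), *Il6ra* (14.2 FPKM), *Il12a* (6.19 FPKM) and *Il6st* (4.85 FPKM). The ranges of *Il12a* and *Il6st* overlapped as well. *Il27ra* (0.0798 FPKM) and *Il23a* (0.0637 FPKM) closed the order with overlapping ranges. In wildtype M2 cells *Ebi3* (32.4 FPKM) was again first, followed by *Il6st* (26.2 FPKM), *Il6ra* (13.7 FPKM), *Il27ra* (4.17 FPKM) and *Il27* (0.974 FPKM), and the other 4 members reached at most 0.214 FPKM. *Mirc11-/-* cells kept this sequence of the members, except that *Il23a* stood above *Il27ra* in M1, where their ranges overlapped. FPKM is per length, so these levels may be compared between genes.

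**Figure D1:**
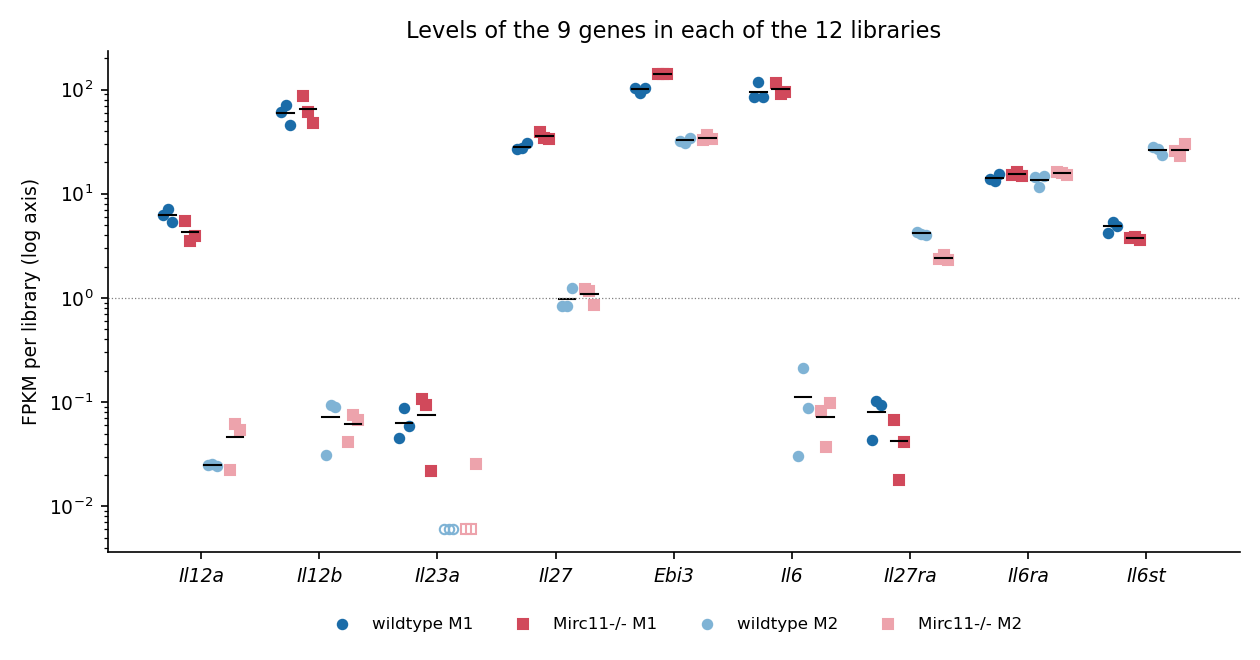
FPKM of each of the 9 genes in each of the 12 libraries on a log axis, with dots for wildtype, squares for *Mirc11-/-*, dark colours for M1, pale colours for M2 and black bars for group means. Open symbols at the bottom mark libraries listed at 0, and the dotted line marks 1 FPKM. *Il12a*, *Il12b* and *Il6* lie at 3.53 FPKM or more in every M1 library and at 0.214 FPKM or less in every M2 library, while *Il6ra* lies between 11.7 and 16.2 FPKM in all 12.

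M1 against M2 asked how these genes differ between the polarized states. Of the 8 members tested, 7 passed in wildtype cells (adjusted p under 0.05), 5 higher and 2 lower in M1, where 78.6% of all tested genes were called. In *Mirc11-/-* cells the counts were again 5 higher and 2 lower, with 80.0% of all genes called. Shares of calls near these backgrounds say nothing particular about the members, so the results are the sizes. The median log2 change was 2.20 over the members and -0.19 over all tested genes in wildtype cells, and 2.17 and -0.21 in *Mirc11-/-* cells. *Il12a*, *Il12b* and *Il6* met the filter only through their M1 levels, and *Il27ra* only through its M2 levels. For these genes a large size was a condition of being tested. Their calls, sizes and adjusted p between M1 and M2 are therefore descriptions and no support for a difference. The medians likewise only describe the members. All log2 changes are on the log2(FPKM + 1) scale, which understates changes of genes under about 1 FPKM in a group.

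The chains of IL-12 were nearly confined to M1 cells. *Il12b*, the p40 chain, had 60.7, 71.0 and 45.5 FPKM in wildtype M1 libraries and 0.0308, 0.0937 and 0.0904 FPKM in wildtype M2 libraries. *Il12b* met the filter only through M1. Its groups were far apart, with a log2 change of 5.79 (SE 0.19, adjusted p = 3.2e-11, limma) in wildtype and of 5.91 in *Mirc11-/-* cells. *Il12a*, the p35 chain, had 6.19, 7.08 and 5.31 FPKM in wildtype M1 and 0.0250, 0.0253 and 0.0245 FPKM in wildtype M2 libraries. This gene also met the filter only through M1. Its log2 change was 2.80 (SE 0.12) in wildtype and 2.32 in *Mirc11-/-* cells, with adjusted p = 3.9e-10 and 2.0e-09.

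*Il23a*, the p19 chain of IL-23, was near the limit of detection in both states. It had 0.0453, 0.0871 and 0.0588 FPKM in wildtype M1 and 0.107, 0.0945 and 0.0219 FPKM in *Mirc11-/-* M1 libraries. It was listed at 0 in 5 of the 6 M2 libraries and at 0.0252 FPKM in Ako2273M2. M1 cells thus held the RNA of the p40 chain with almost none of its IL-23 partner, and no test was made on *Il23a*.

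How little stands behind the lowest values can be read from their spacing. For a step chosen for each gene, 31 of 31 member values under 0.3 FPKM lay within 0.1 step of a whole number, so a step may be close to 1 counted fragment. *Il12a* in M2 rests on 1 or 2 steps a library, *Il12b* in M2 on 2 to 6, *Il6* in M2 on 1 to 7, *Il27ra* in M1 on 1 to 5 and *Il23a* in M1 on 1 to 6. No fold of FPKM is given against these groups.

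IL-27 chains differed in how far they were restricted to M1. *Il27*, the p28 chain, had 26.6, 27.3 and 30.4 FPKM in wildtype M1 and 0.838, 0.845 and 1.24 FPKM in wildtype M2 libraries. The level was far higher in M1, by 3.89 on the log2 scale (SE 0.10, adjusted p = 3.4e-12), and by 4.14 in *Mirc11-/-* cells. *Ebi3*, its partner, had 103.9, 93.6 and 104.0 FPKM in wildtype M1 and 32.0, 31.0 and 34.3 FPKM in wildtype M2 libraries. *Ebi3* thus stayed well expressed in M2, at 3.10 times less than in M1 by group means, with a log2 change of 1.60 (SE 0.06, adjusted p = 1.1e-10). In *Mirc11-/-* cells the M1 mean of *Ebi3* was 4.14 times the M2 mean and the log2 change was 2.02.

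*Il6*, a cytokine of the acute phase and of fever, moved most of the members. It had 85.3, 116.8 and 84.3 FPKM in wildtype M1 and 0.0302, 0.214 and 0.0887 FPKM in wildtype M2 libraries. It was higher in M1 by 6.43 on the log2 scale (SE 0.12, adjusted p = 3.9e-13), and by 6.56 in *Mirc11-/-* cells.

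Promoters of 300 bases (250 before and 50 after the start site) were listed by RefSeq for 6 members, *Il12a* with 2 start sites, *Il12b*, *Ebi3*, *Il6*, *Il6ra* and *Il6st*. They were searched on both strands for GAAANNGAA (IRF factors), GGGNNTTCC and GGGNNTTTC (NF-kB), TTCNNNGAA (STAT factors), TTGCNNAA (C/EBP factors) and TGANTCA (AP-1). Among all 32851 promoters of that length, 8.56%, 5.82%, 4.36%, 8.30%, 10.8% and 7.81% held the respective letters. The *Il6* promoter matched the second NF-kB form from 44 bases before the start, C/EBP from 128 bases before and AP-1 from 249 bases before, and the *Ebi3* promoter matched the first NF-kB form from 44 bases before the start. The other promoters matched none of these letters, and nothing follows from that about the factors. The promoters of *Il6* and *Ebi3*, which were higher in M1 and held matches, are printed 5′ to 3′ with the matches in capitals, with that of *Il12b*, higher in M1 without a match, for comparison (GRCm38.p6).
Il6, chr5:30012864-30013163, plus strand: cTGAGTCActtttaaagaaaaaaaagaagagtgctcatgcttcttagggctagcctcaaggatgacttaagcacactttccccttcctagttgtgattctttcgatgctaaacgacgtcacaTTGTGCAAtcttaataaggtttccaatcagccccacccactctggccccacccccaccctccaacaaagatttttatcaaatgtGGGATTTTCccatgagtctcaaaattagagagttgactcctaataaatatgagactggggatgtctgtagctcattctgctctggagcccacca
Ebi3, chr17:55952373-55952672, plus strand: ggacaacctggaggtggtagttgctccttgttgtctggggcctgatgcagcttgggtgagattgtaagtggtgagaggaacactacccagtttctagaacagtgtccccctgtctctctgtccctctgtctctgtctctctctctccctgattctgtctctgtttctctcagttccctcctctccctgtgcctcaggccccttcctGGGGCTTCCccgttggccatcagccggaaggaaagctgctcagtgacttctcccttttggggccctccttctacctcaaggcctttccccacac
Il12b, chr11:44399813-44400112, plus strand: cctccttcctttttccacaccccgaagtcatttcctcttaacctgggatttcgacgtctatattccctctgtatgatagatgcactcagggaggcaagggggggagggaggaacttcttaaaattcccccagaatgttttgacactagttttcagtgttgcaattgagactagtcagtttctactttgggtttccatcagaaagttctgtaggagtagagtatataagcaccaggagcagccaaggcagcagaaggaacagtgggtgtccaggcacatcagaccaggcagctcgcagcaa

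The receptor chains did not move together. *Il6st*, encoding gp130, had 4.20, 5.41 and 4.93 FPKM in wildtype M1 and 27.96, 27.1 and 23.5 FPKM in wildtype M2 libraries. It was lower in M1, with a mean 0.185 times that in M2 and a log2 change of -2.22 (SE 0.10, adjusted p = 7.0e-10), and -2.52 in *Mirc11-/-* cells. *Il27ra* had 0.0430, 0.103 and 0.0930 FPKM in wildtype M1 and 4.33, 4.12 and 4.06 FPKM in wildtype M2 libraries, so its groups lay far apart. *Il27ra* met the filter only through M2, and its log2 change was -2.26 (SE 0.06, adjusted p = 4.9e-12), and -1.71 in *Mirc11-/-* cells. The IL-27 chains were therefore highest in the cells in which the IL-27 receptor chain was lowest.

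*Il6ra*, the IL-6 binding chain, differed little between the states. It had 14.0, 13.2 and 15.4 FPKM in wildtype M1 and 14.5, 11.7 and 14.9 FPKM in wildtype M2 libraries, and the groups overlapped. Its log2 change was 0.05 (SE 0.08, adjusted p = 0.55) in wildtype and -0.03 (adjusted p = 0.72) in *Mirc11-/-* cells. Median-of-ratios scaling, which moved the median of all genes by 0.19 and 0.21, gave 0.26 (adjusted p = 0.011) and 0.20 (adjusted p = 0.035). Whether *Il6ra* passed thus depends on the scaling, as does its sign in *Mirc11-/-* cells.

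*Mirc11-/-* against wildtype M1 cells asked what changed without the cluster under LPS and interferon gamma. Of the 8 members tested, *Ebi3* and *Il27* rose and *Il12a* fell, which makes 3 called where 13.9% of all tested genes were called. The other 5 did not pass. The median log2 change was 0.09 over the members and -0.02 over all tested genes.

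*Ebi3* showed the clearest change of the cytokine genes. It had 103.9, 93.6 and 104.0 FPKM in wildtype M1 and 139.9, 141.8 and 142.3 FPKM in *Mirc11-/-* M1 libraries. All *Mirc11-/-* libraries lay above all wildtype libraries, and the mean rose from 100.5 ± 6.0 to 141.3 ± 1.3 FPKM (SD, n = 3), 1.41 times. The log2 change was 0.49 (SE 0.06, adjusted p = 0.00034, limma). Dropping any 1 of the 12 libraries left adjusted p at 0.0028 or less, and the 6 libraries with matching labels gave 0.036. In that subset wildtype M1 and wildtype M2 are 1 library each, assumed to vary like the *Mirc11-/-* groups of 2, so its p-values do not test the wildtype spread.

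*Il27* had 26.6, 27.3 and 30.4 FPKM in wildtype M1 and 39.2, 34.3 and 33.7 FPKM in *Mirc11-/-* M1 libraries, with no overlap. Its log2 change was 0.34 (SE 0.10, adjusted p = 0.037), from 28.1 ± 2.0 to 35.7 ± 3.0 FPKM. It was lost when Wt2260M1, Wt2261M1, Ako2271M1, Ako2272M1 or Ako2273M1 was dropped, with adjusted p rising to at most 0.13. It was also lost when 0.1 instead of 1 was added (0.14), when low genes were kept (0.081), with quantile normalization (0.065) and in the 6 libraries with matching labels (0.066). Both chains of IL-27 were thus higher in *Mirc11-/-* M1 cells, *Il27* with a call that did not hold in these fits.

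*Il12a* had 6.19, 7.08 and 5.31 FPKM in wildtype M1 and 5.47, 3.53 and 3.90 FPKM in *Mirc11-/-* M1 libraries. The groups overlapped, since Ako2271M1 lay above Wt2262M1. The log2 change was -0.45 (SE 0.12, adjusted p = 0.028), from 6.19 ± 0.89 to 4.30 ± 1.03 FPKM. It was lost when Wt2260M1, Wt2261M1, Ako2272M1 or Ako2273M1 was dropped, with adjusted p rising to at most 0.12. It was also lost when 0.1 was added (0.082), when low genes were kept (0.059), in a fit to the M1 libraries alone (0.10) and in the 6 libraries with matching labels (0.27).

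The p40 chain and IL-6 did not pass in M1. *Il12b* had 86.9, 60.8 and 47.2 FPKM in *Mirc11-/-* M1 libraries, a wider spread (SD 20.2) than in wildtype (SD 12.8), and a log2 change of 0.11 (SE 0.19, adjusted p = 0.74). *Il6* had 115.9, 90.7 and 95.2 FPKM in *Mirc11-/-* M1 libraries, within the span of wildtype, and a log2 change of 0.08 (SE 0.12, adjusted p = 0.71).

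Of the receptor chains, *Il6st* had 3.75, 3.87 and 3.57 FPKM in *Mirc11-/-* M1 libraries, all below the wildtype values of 4.20 to 5.41 FPKM. Its log2 change of -0.30 (SE 0.10, adjusted p = 0.068) did not pass, and passed with a pseudocount of 0.1 (-0.36, adjusted p = 0.044) and without Wt2260M1, Ako2272M2 or Ako2273M2 (adjusted p from 0.039). *Il6ra* had 15.1, 16.0 and 14.8 FPKM in *Mirc11-/-* M1 libraries, with a log2 change of 0.11 (adjusted p = 0.45). *Il27ra* had 0.0679, 0.0180 and 0.0416 FPKM, with a log2 change of -0.05 (adjusted p = 0.62).

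Markers also differed between the M1 groups. The 8 M1 markers summed to between 6147 and 6465 FPKM in wildtype and between 5552 and 6130 FPKM in *Mirc11-/-* M1 libraries, and 1 of them, *Nos2*, fell, with 1419, 1630 and 1379 FPKM in wildtype and 1038, 1083 and 938 FPKM in *Mirc11-/-* libraries. The 7 neutrophil markers in the table summed to between 53.2 and 89.6 FPKM in wildtype and between 35.6 and 38.9 FPKM in *Mirc11-/-* M1 libraries, led by *S100a8*. Both tested members of that list fell. These calls on markers stand beside 13.9% of all tested genes called between genotypes in M1. The 7 dendritic cell markers summed to between 15.2 and 20.0 FPKM in wildtype and between 15.9 and 17.3 FPKM in *Mirc11-/-* M1 libraries, led by *Ccr7*, with 5 or more of them under 1 FPKM in every library. The part of these markers in the changes of *Ebi3*, *Il27* and *Il12a* was not tested.

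**Figure D2:**
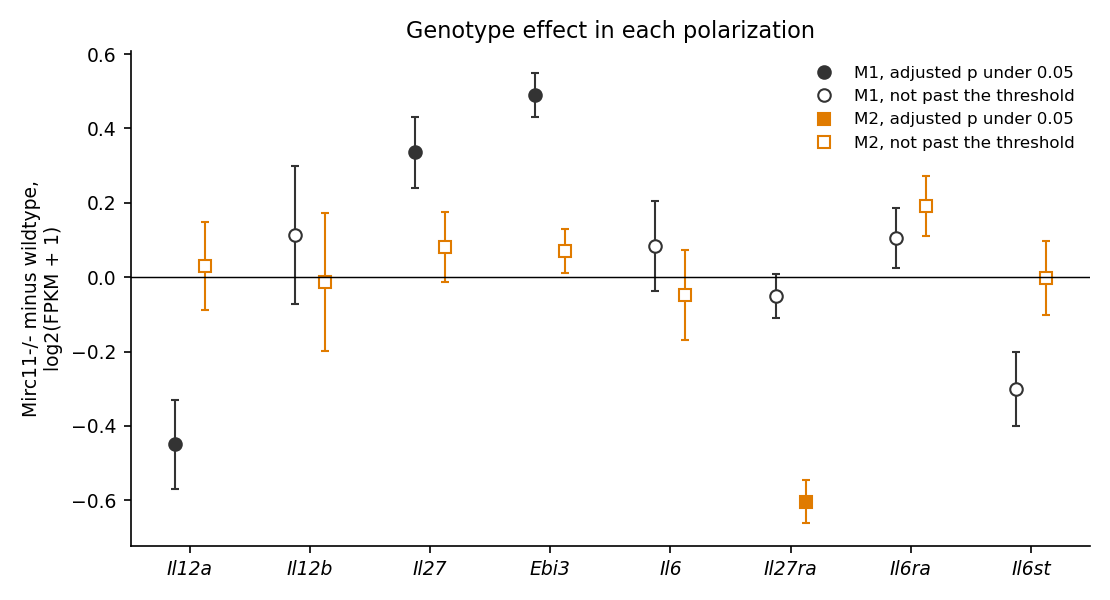
Log2 change of *Mirc11-/-* against wildtype cells on the log2(FPKM + 1) scale for the 8 tested members, with dark circles for M1, orange squares for M2, bars for the standard error and filled symbols for an adjusted p under 0.05. *Ebi3* (0.49), *Il27* (0.34) and *Il12a* (-0.45) are filled in M1 and *Il27ra* (-0.60) in M2.

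In M2 cells the same comparison called 1 of the 8 members, *Il27ra*, which fell, where 4.59% of all tested genes were called. The median log2 change was 0.01 over the members and 0.00 over all tested genes. *Il27ra*, the chain that binds IL-27, had 4.33, 4.12 and 4.06 FPKM in wildtype M2 and 2.34, 2.56 and 2.32 FPKM in *Mirc11-/-* M2 libraries. The groups did not overlap, and the mean fell from 4.17 ± 0.14 to 2.40 ± 0.13 FPKM (SD, n = 3), to 0.576 times. The log2 change was -0.60 (SE 0.06, adjusted p = 0.00015, limma), and no dropped library brought adjusted p above 0.0014. It was 0.037 with 0.1 added. The 6 libraries with matching labels gave 0.031, with 1 wildtype library a polarization.

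The other members did not pass in M2. *Il6ra* had 16.2, 15.8 and 15.1 FPKM in *Mirc11-/-* M2 libraries, all above the wildtype range of 11.7 to 14.9 FPKM, with a log2 change of 0.19 (SE 0.08, adjusted p = 0.23). *Il6st* had 25.5, 23.0 and 30.2 FPKM there and a log2 change of -0.00 (adjusted p = 1.00). *Ebi3* had 32.9, 36.3 and 33.1 FPKM, overlapping wildtype, and a log2 change of 0.07 (SE 0.06, adjusted p = 0.60). *Il27*, with 1.23, 1.16 and 0.862 FPKM, had a log2 change of 0.08 (adjusted p = 0.73). *Il12a*, *Il12b* and *Il6* had levels of at most 0.0987 FPKM in *Mirc11-/-* M2 libraries and adjusted p from 0.89 to 0.98.

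In M2 as well, markers moved with genotype. The 8 M2 markers summed to between 501 and 554 FPKM in wildtype and between 690.5 and 779 FPKM in *Mirc11-/-* M2 libraries. Of them 4 rose, where 4.59% of all tested genes were called. The 8 T and NK cell markers summed to between 11.3 and 13.0 FPKM in wildtype and between 6.99 and 9.84 FPKM in *Mirc11-/-* M2 libraries, nearly all of it *Cd4* (11.7 and 7.73 FPKM on average), with the other 7 under 1 FPKM in every library. B cell markers summed to between 0.493 and 1.12 FPKM in wildtype and between 1.32 and 1.76 FPKM in *Mirc11-/-* M2 libraries, with *Pax5* at 0. Their part in the change of *Il27ra* was not tested.

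The difference between the genotype effects in M1 and M2 was tested for each member. It was called for *Ebi3* and *Il27ra*, 2 of 8, where 1.85% of all tested genes were called. The effect on *Ebi3* was greater in M1 by 0.42 on the log2 scale (SE 0.08, adjusted p = 0.027). That call was lost when Wt2261M1, Ako2271M1, Ako2272M1, Wt2260M2, Wt2262M2, Ako2271M2 or Ako2273M2 was dropped (adjusted p at most 0.087) and in the 6 libraries with matching labels (0.23).

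For *Il27ra* the difference of 0.55 (SE 0.08, adjusted p = 0.0078) depends on the pseudocount. With 1 added, M1 levels of at most 0.103 FPKM leave no room for a change of their own, and the genotype effect there was -0.05. With 0.1 added it was -0.33 in M1 and -0.77 in M2, and the difference of 0.44 did not pass (adjusted p = 0.51). It also did not pass in the 6 libraries with matching labels (0.088). The differences for *Il12a* (-0.48, adjusted p = 0.19), *Il6st* (-0.30, 0.37), *Il27* (0.25, 0.44), *Il6* (0.13, 0.83), *Il12b* (0.13, 0.90) and *Il6ra* (-0.09, 0.83) did not pass, and that of *Il12a* passed without Ako2271M1 (adjusted p = 0.044).

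Ratios of chains that pair in a protein were compared library by library, where both genes had at least 1 FPKM in all 6 libraries of a polarization. There were 5 such comparisons, and with 3 libraries against 3 the exact two-sided permutation p cannot go below 0.10. FPKM is per length, but RNA ratios are not ratios of protein chains.

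The ratio of *Il12b* to *Il12a* was 9.81, 10.0 and 8.57 in wildtype M1 and 15.9, 17.2 and 12.1 in *Mirc11-/-* M1 libraries. The groups did not overlap, and the ratio averaged 9.47 ± 0.79 and 15.1 ± 2.7 (SD, n = 3), a log2 difference of 0.66 (exact permutation p = 0.10, adjusted p = 0.17 over the 5). Dropping a library gave differences from 0.55 to 0.81. In both genotypes the p40 gene exceeded its IL-12 partner several times over.

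The ratio of *Ebi3* to *Il27* was 3.91, 3.43 and 3.42 in wildtype M1 and 3.57, 4.13 and 4.22 in *Mirc11-/-* M1 libraries. The groups overlapped, with a log2 difference of 0.15 (exact permutation p = 0.20, adjusted p = 0.25), which was -0.02 in the libraries with matching labels. A difference in the balance of the IL-27 chains was therefore not shown.

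Among receptor chains, the ratio of *Il6ra* to *Il6st* in M1 was 3.33, 2.44 and 3.12 in wildtype and 4.04, 4.14 and 4.15 in *Mirc11-/-* libraries, without overlap (log2 difference 0.48, exact permutation p = 0.10, adjusted p = 0.17). In M2 it was 0.519, 0.431 and 0.632 in wildtype and 0.634, 0.687 and 0.4998 in *Mirc11-/-* libraries, with overlap (log2 difference 0.21, exact permutation p = 0.40, adjusted p = 0.40). The M2 difference was 0.072 without Wt2261M2 and 0.35 without Wt2262M2, and the libraries with matching labels gave 0.30 in M1. The binding chain of IL-6 thus outweighed gp130 in M1 libraries and fell below it in M2 libraries of both genotypes. The ratio of *Il27ra* to *Il6st* in M2 was 0.155, 0.152 and 0.173 in wildtype and 0.0918, 0.111 and 0.0768 in *Mirc11-/-* libraries, without overlap (log2 difference -0.79, exact permutation p = 0.10, adjusted p = 0.17).

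**Figure D3:**
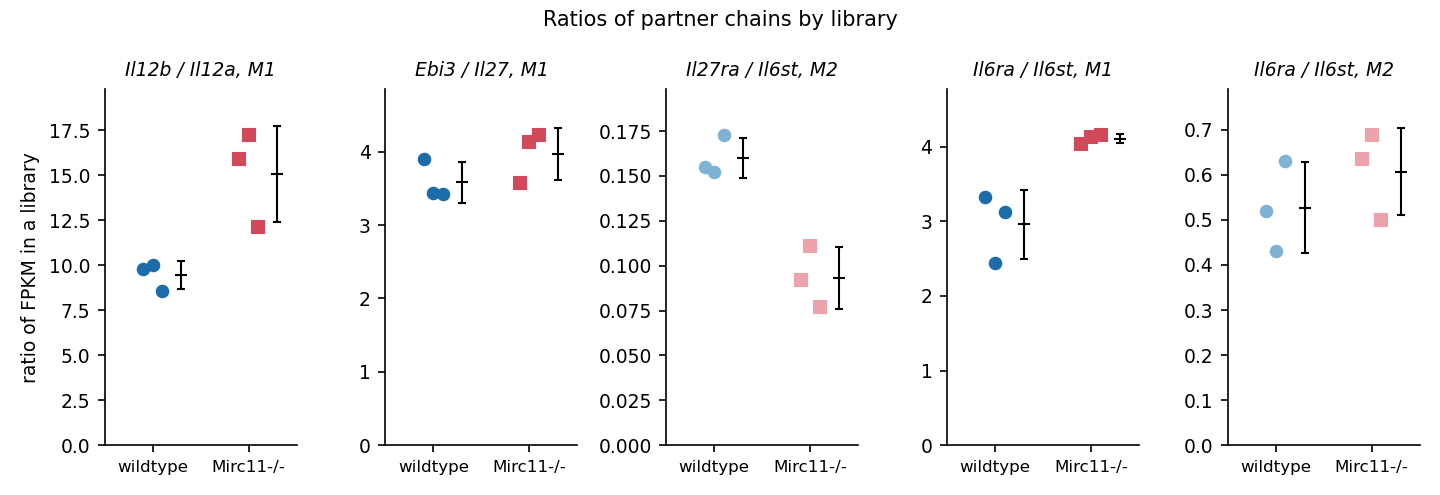
Ratio of FPKM of 2 partner chains in each library for the 5 comparisons, each on its own axis from 0, with dots for wildtype, squares for *Mirc11-/-* and black marks for mean ± SD of 3 libraries. The libraries do not overlap between genotypes for *Il12b* to *Il12a* (9.47 and 15.1 on average), for *Il27ra* to *Il6st* (0.160 and 0.0932) and for *Il6ra* to *Il6st* in M1 (2.96 and 4.11).

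*Il27ra* is the only member on chromosome 8, which also carries the deleted cluster. *Il12a* and *Il6ra* lie on chromosome 3, *Il12b* on 11, *Il23a* on 10, *Il27* on 7, *Ebi3* on 17, *Il6* on 5 and *Il6st* on 13. Of tested genes with a known chromosome, 13.0% of 531 on chromosome 8 were called in M2 against 4.11% of 9048 on the others, and in M1 the shares were 22.0% and 13.5%. In the gene order of RefSeq, 11 genes, 3 of them tested, lie between *Il27ra* and *Mir23a*. Among the 19 nearest tested genes, not counting *Mir27a* of the cluster itself, 6 were called in M2 (3 higher, 3 lower) and 7 in M1 (2 higher, 5 lower).

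In M2 the called neighbours were *Cacna1a*, a calcium channel subunit gene (log2 change 2.06), *Ndufb7*, of respiratory complex I (0.42), *Gipc1*, an adaptor gene (0.32), *Mri1*, of methionine salvage (-0.69), *Zswim4* (-0.44) and *Scoc* (-0.41). The genes directly beside *Il27ra* in this order, *Samd1* (0.02, adjusted p = 0.92) and *Rfx1* (-0.09, adjusted p = 0.50), did not pass. Called neighbours of both directions stood among others that did not pass. The part of its place on the chromosome in the change of *Il27ra* was not tested.

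**Figure D4:**
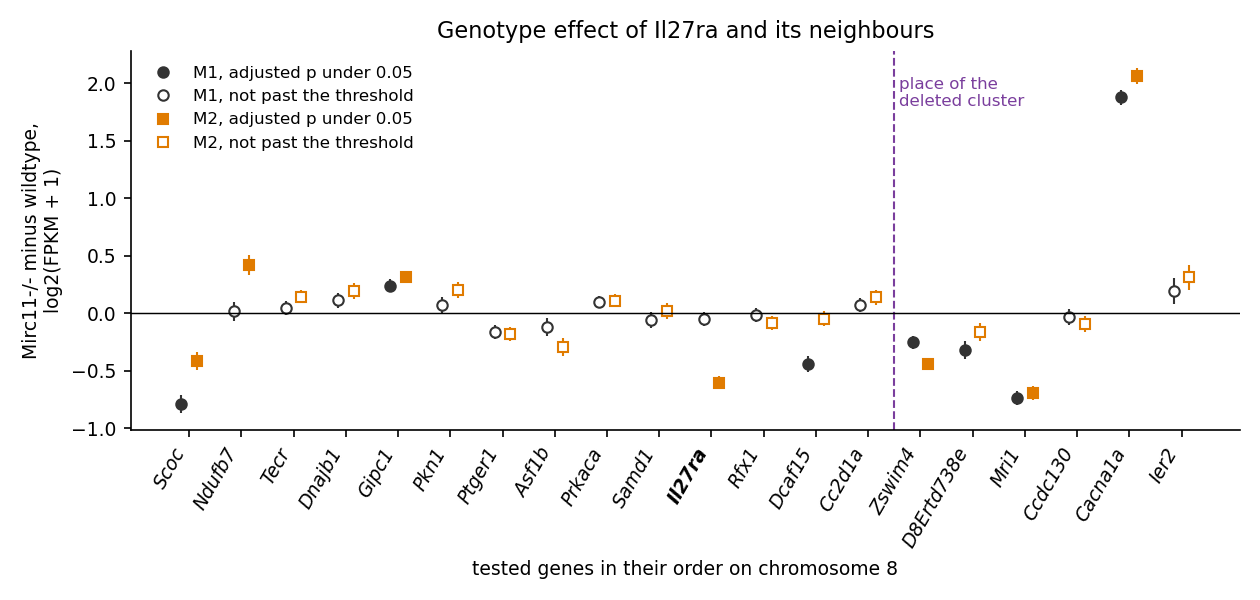
Log2 change of *Mirc11-/-* against wildtype cells for *Il27ra* and the 19 nearest tested genes in their order on chromosome 8, with dark circles for M1, orange squares for M2, bars for the standard error and filled symbols for an adjusted p under 0.05. The dashed line marks the place of the deleted cluster. *Cacna1a* stands highest (2.06 in M2), and *Samd1* and *Rfx1* beside *Il27ra* lie near 0.

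Some members overlap a gene on the other strand, and the strand setting of the counting is not stated. *Ebi3* shares 2252 of its 4383 bases with the antisense gene *Gm16712*, which had 2.41 and 2.31 FPKM on average in wildtype and *Mirc11-/-* M1 libraries, where *Ebi3* had 100.5 and 141.3 FPKM. *Il27* shares 103 bases with *Apobr* (37.2 FPKM in wildtype and 36.8 FPKM in *Mirc11-/-* M1 cells). In M2 *Apobr* had 33.8 and 33.3 FPKM, where *Il27* averaged 0.974 and 1.09 FPKM. The part of *Apobr* reads in the *Il27* values was not tested. *Il6ra* shares 281 bases with the antisense gene *Gm42809* and *Il27ra* 2 bases with *Palm3*. Reads from the shared bases cannot be assigned to a strand here.

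Receptors of IL-12 and IL-23 were the pathway list that differed most by its median between genotypes in M1. *Il12rb1*, the chain shared by both receptors, had a mean of 4.84 ± 0.63 FPKM in wildtype M1 against 8.87 ± 1.48 FPKM in *Mirc11-/-* M1 libraries (a log2 change of 0.75, SE 0.12, adjusted p = 0.0017). *Il23r*, the IL-23 binding chain, averaged 6.48 ± 0.36 and 11.97 ± 0.70 FPKM (log2 change 0.79, SE 0.06, adjusted p = 7.9e-06). Both tested genes of the list thus rose, where 13.9% of all tested genes were called in M1. The list median rests on these genes alone. *Il12rb1* lies on chromosome 8, where 22.0% of tested genes were called in M1. *Il12rb2*, at 0.311 and 0.213 FPKM in M1, averaged 1.76 and 1.33 FPKM in wildtype and *Mirc11-/-* M2 libraries. Its M2 libraries ranged from 1.71 to 1.86 FPKM in wildtype and from 0.968 to 1.58 FPKM in *Mirc11-/-*. It did not reach the mean of 1 FPKM over all libraries and was not tested. The median of 0.77 stands beside -0.02 over all tested genes. In M2 neither *Il12rb1* (0.432 and 0.747 FPKM) nor *Il23r* (0.0235 and 0.0651 FPKM) passed. Levels this low leave little room for a change on the log2(FPKM + 1) scale, so this does not show a change confined to M1. The M2 ranges in wildtype and *Mirc11-/-* were 0.257 to 0.526 and 0.626 to 0.834 FPKM for *Il12rb1*. For *Il23r* they were 0.0120 to 0.0354 and 0.0424 to 0.102 FPKM, near the limit of detection. These ranges only describe the values and do not show a change in M2. Both genes of the IL-23 receptor were thus expressed in M1 cells, in which *Il23a* reached at most 0.107 FPKM.

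Signalling genes below the receptors changed in part in M1. Of 11 JAK and STAT genes, 4 rose and none fell in *Mirc11-/-* M1 cells, namely *Jak3* (log2 change 0.48), *Tyk2* (0.34), *Stat5a* (0.26) and *Stat5b* (0.21), with a list median of 0.16, where 13.9% of all tested genes were called (607 higher and 807 lower). *Jak3*, the kinase of common gamma chain receptors, averaged 14.4 ± 1.4 and 20.5 ± 1.0 FPKM in M1 and was the only gene of this list called in M2 (0.33, adjusted p = 0.013). *Stat3*, the main STAT of IL-6, was not called between genotypes, and was higher in M1 than in M2 by 2.02 in wildtype. The call on *Tyk2* was lost without Wt2260M1, Wt2261M1, Ako2271M1 or Ako2272M1 (adjusted p at most 0.086), and that on *Stat5b* without Wt2260M1, Wt2261M1, Ako2272M1 or Ako2273M1 (at most 0.12). The call on *Stat5a* was lost in the 6 libraries with matching labels (0.054) and in a fit to the M1 libraries alone (0.051), in which *Tyk2* (0.083) and *Stat5b* (0.099) lost theirs too. The call on *Jak3* in M2 was lost without Wt2261M2 or Ako2271M2 (at most 0.061).

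Of 10 brakes on this signalling, 2 rose and 1 fell in *Mirc11-/-* M1 cells, against the 13.9% called of all tested genes, and 1 rose in M2, against 4.59%. They were the phosphatase genes *Ptpn1* (0.23) and *Ptpn6* (0.27), and *Cish* (-0.23, adjusted p = 0.049), whose call was kept only when Wt2261M2 or Wt2262M2 was the library dropped (otherwise at most 0.14). The call on *Ptpn6* was lost without Wt2261M1 or Ako2272M1 (at most 0.079). In M2 *Socs1*, an inhibitor of JAK kinases, rose by 0.48 (adjusted p = 0.020), a call lost without Wt2260M2, Wt2261M2, Ako2271M2 or Ako2272M2 (at most 0.086). Of 10 STAT3 response genes, 1 was called in M1 and 2 in M2. *Cebpd* rose in M1 (0.32) and *Saa3*, an acute phase protein gene (0.69), and *Il4ra* (0.34) rose in M2. The call on *Cebpd* was lost without Wt2260M1, Wt2261M1, Ako2272M1 or Ako2273M1 (at most 0.12), that on *Saa3* without the same M2 libraries as *Socs1* (at most 0.13), and that on *Il4ra* without those, Ako2273M2, Wt2260M1 or Ako2272M1 (at most 0.16). *Socs3*, the feedback inhibitor of gp130, was higher in M1 than M2 in wildtype (log2 change 5.83), and *Myc* was lower (-3.92).

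Among 20 transcription factors of cytokine promoters, 4 rose and 1 fell in *Mirc11-/-* M1 cells, where 13.9% of all tested genes were called. The 4 with the smallest p were *Nfkb2* (0.33, adjusted p = 0.0015), *Irf8* (0.38, 0.0026), *Batf* (0.52, 0.0035) and *Fos*, which fell (-0.37, 0.027). *Irf8*, a factor of the *Il12b* promoter, averaged 179 ± 12 and 234 ± 4.4 FPKM. In M2, *Batf* (0.37) and *Nfil3* (0.30) rose, and of the 12 fits that drop a library only 3 kept each call. These were the fits without Wt2261M1, Wt2260M2 or Ako2273M2 for *Batf* (adjusted p otherwise at most 0.16) and without Ako2273M1, Wt2262M2 or Ako2273M2 for *Nfil3* (at most 0.17). The call on *Fos* was lost without Wt2260M1, Wt2261M1, Ako2271M1 or Ako2272M1 (at most 0.099). Of 10 factors of mRNA decay and stability, *Zfp36l2*, which promotes decay, fell from 30.4 ± 1.5 to 21.8 ± 1.3 FPKM in M1 (-0.46, adjusted p = 0.0017). *Arid5a*, which stabilizes *Il6* mRNA, rose from 5.47 ± 0.09 to 7.11 ± 0.48 FPKM (0.32, adjusted p = 0.0045), while *Il6* itself did not pass.

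Neither the 3 tested genes of other gp130-type cytokines and receptors nor the 3 tested genes of IL-6 receptor shedding were called between genotypes in M1 or M2. Over all tested genes 13.9% were called in M1 and 4.59% in M2. For lists of 3 genes, the lack of calls thus says nothing particular about them. Between the states in wildtype, *Il11ra1*, the IL-11 receptor chain, was lower in M1 (log2 change -3.11) and *Clcf1*, a cytokine gene, was higher (1.35). The sheddase gene *Adam10* was lower (-0.97) and *Rhbdf2*, a partner of the sheddase ADAM17, was higher (0.81). Over all lists 6 of 66 tested genes lie on chromosome 8, and *Il12rb1*, *Jak3* and *Irf8* are the 3 of those called in M1, against 13 of 60 on other chromosomes. Over all tested genes with a known chromosome, 22.0% of 531 on chromosome 8 and 13.5% of 9048 on the others were called in M1.

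Profiles most like a member were sought over the 12 libraries, as the root mean square distance of log2(FPKM + 1) after centring each gene. The nearest to *Il12b* were *Ptges*, a prostaglandin E synthase gene (0.22), *Socs3* (0.26) and *Cd38* (0.26), and the nearest member was *Il6* (0.36). The nearest to *Il27ra* were *Ccsap* (0.12), *Rasgrp3* (0.13) and *Kcnj2* (0.15), each high in M2, with *Rasgrp3* at a mean of 3.54 FPKM in wildtype and 2.40 FPKM in *Mirc11-/-* M2 libraries. The nearest to *Il6ra* were *Srrm1* (0.06), *Zfp217* (0.06) and *Ppp1r12c* (0.07), while no other member came closer to it than *Ebi3* (0.91). These distances are descriptions without a test.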

How the data were processed

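RNA-seq was made by the submitters from 12 macrophage libraries (miRNeasy RNA, NEBNext Ultra II libraries). Their processing notes name STAR 2.5.1, the build mm9, Cufflinks and DESeq, without roles. The deposited FPKM values per gene and library, made by the authors, were used as they stand, without raw counts, so that depth per library is known only relatively. FPKM divides by the library's total, and a rise of a few abundant genes lowers all others. The 2 tables of the authors' own comparisons (log2 fold change and adjusted p per transcript) were not used. All 12 columns matched a title, and 0 columns stayed unmapped.

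Genes with a mean of at least 1 FPKM (10137 of 23863) entered 1 limma 3.58.1 fit (R 4.3.3) on log2(FPKM + 1) with 4 group means and a mean-dependent prior variance, tested first on simulated data. P-values were Benjamini-Hochberg adjusted within each comparison over all tested genes, and a call was an adjusted p under 0.05. Every adjusted p without "exact permutation" beside it comes from limma. Ratios were tested with an exact permutation test (scipy 1.17.1). The members and lists were chosen with earlier results of these data known. All 9 members are named, from each list at most 4 genes with the smallest p, and the called neighbours of *Il27ra* after their values were seen. Sequences, gene order and chromosomes come from RefSeq (GRCm38.p6), 3′ UTRs from GENCODE M21, and no coordinate of the mm9 files was used.

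Alternatives were a pseudocount of 0.1, no filter, quantile normalization, median-of-ratios scaling, each library left out, grouping by the treatment field, only the 6 libraries whose title and treatment field match, a fit per polarization and the title number as a block.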

Additional observations from a re-analysis of the deposited data

Results flagged for a closer look

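The genotype effect in M1 minus that in M2 passed the test of the difference for 5 of the genes named. It was 0.42 for *Ebi3* (adjusted p = 0.027) and 0.55 for *Il27ra* (0.0078), with the limits given with those results. It was 0.74 for *Il23r* (0.0016), whose M2 levels lay at or under 0.102 FPKM and whose difference did not pass with a pseudocount of 0.1 (0.47, adjusted p = 0.32) or in the 6 libraries with matching labels (0.065). It was -0.45 for *Cish* (0.043), with 2.99 FPKM in wildtype and 2.40 FPKM in *Mirc11-/-* M1 libraries and 20.6 and 24.1 FPKM in M2, and of the fits that drop a library it passed only in those without Wt2261M1 or Wt2261M2 (otherwise at most 0.12). It was 0.34 for *Nfkb2* (0.032), with 68.9 and 87.1 FPKM in M1 and 35.2 and 35.0 FPKM in M2, and it passed only without Wt2262M1 or Ako2273M1 (otherwise at most 0.095). All 5 were among 1.85% of tested genes called in this test. No group had the 4 or more samples needed to test for a single stray library.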

How the results depend on the processing

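Calls on members that did not hold are given with their results. Of the list genes, *Stat5a*, *Stat5b*, *Ptpn1*, *Ptpn6*, *Cish*, *Cebpd*, *Irf8*, *Arid5a* and *Fos* in M1 and *Jak3*, *Socs1*, *Saa3*, *Il4ra*, *Batf* and *Nfil3* in M2 lost the call in the 6 matching libraries (adjusted p 0.052 to 0.28). Without a filter *Cish*, *Cebpd* and *Fos* in M1 and *Saa3*, *Il4ra*, *Batf* and *Nfil3* in M2 lost it (0.058 to 0.25). In a fit per polarization *Stat5a*, *Tyk2*, *Stat5b* and *Cebpd* in M1 and *Saa3*, *Socs1*, *Il4ra*, *Batf* and *Nfil3* in M2 lost it (0.051 to 0.12), as did *Cish* in M1 with quantile normalization (0.15) and median-of-ratios scaling (0.064) and *Nfil3* with a pseudocount of 0.1 (0.051). Over all genes named, 99 calls were lost when 1 library was left out, 30 with grouping by the treatment field, 22 with only the 6 libraries whose title and treatment field match, 10 in a fit per polarization, 10 without a filter, 5 with a pseudocount of 0.1, 4 with quantile normalization, 2 with median-of-ratios scaling and 2 with a block. The causes were not tested, though leaving libraries out also leaves fewer to estimate from.

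Leaving out 1 library, 1 to 4 members were called in *Mirc11-/-* against wildtype M1, 1 in M2, 7 between M1 and M2 in each genotype and 1 to 2 in the difference of effects. All genes called ranged from 753 to 1516, from 201 to 480 and, for the difference, from 79 to 292. The log2 change turned its sign for members near 0. For *Il12b* it ran from -0.12 to 0.32 in M1, from -0.041 to 0.0016 in M2 and from -0.10 to 0.33 in the difference. For *Il6* it ran from -0.022 to 0.24 in M1 and from -0.10 to 0.018 in M2. For *Il6st* in M2 it ran from -0.10 to 0.084, and for *Il6ra* from -0.049 to 0.11 between M1 and M2 in wildtype and from -0.15 to 0.016 in the difference.

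In the 6 matching libraries, with 1 or 2 a group, 1 member was called in M1 and 0 in the difference by limma (2 at an unadjusted p under 0.05), where a pseudocount of 0.1 left 1, and without a filter 1 was called in M1. Signs turned there for *Il12b* (0.038) and *Il6* (0.040) in M2, for *Il6ra* between M1 and M2 in wildtype (-0.051), for *Il6ra* (0.015) and *Il6st* (0.087) in the difference, and for the ratio of *Ebi3* to *Il27* (-0.024). All genes called fell to 457 in M1, 117 in M2 and 58 in the difference, and a fit per polarization called 869 and 273. *Il6ra* between M1 and M2 in *Mirc11-/-* turned to 0.15 with quantile normalization and 0.20 with median-of-ratios scaling, which moved the median of all genes in *Mirc11-/-* cells by 0.20 and 0.21. With median-of-ratios scaling the calls over all genes split into 3922 higher and 3900 lower in M1 (as deposited 2696 and 5274) in wildtype, and into 796 and 644 (607 and 807) in *Mirc11-/-* against wildtype M1.

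Grouping by the treatment field mixes libraries with high and low *Il12b* in a group, and 0 members were called by limma in every comparison, also at an unadjusted p under 0.05. Of all genes 2, 2, 0, 0 and 0 were called, with 337, 524, 112, 145 and 446 at an unadjusted p under 0.05. Values that turned were, in M1, *Il12a* (0.68). In M2 they were *Il12a* (-1.10), *Il27* (-1.10), *Ebi3* (-0.28), *Il27ra* (0.31), *Il6st* (0.47), *Jak3* (-0.0038), *Socs1* (-0.37), *Saa3* (-1.04), *Il4ra* (-0.36) and *Batf* (-0.29). Between M1 and M2 in wildtype they were *Il12a* (-0.93), *Il12b* (-1.85), *Il27* (-1.28), *Ebi3* (-0.49), *Il6* (-2.17), *Il27ra* (0.69), *Il6ra* (-0.088), *Il6st* (0.57), *Il23r* (-1.02), *Il12rb1* (-0.78), *Il11ra1* (1.13), *Clcf1* (-0.40), *Stat3* (-0.72), *Jak2* (-0.52), *Socs3* (-1.95), *Cish* (0.82), *Myc* (1.16), *Nfkbiz* (-1.28), *Irf1* (-0.84), *Zfp36l1* (0.93), *Arid5a* (-0.60), *Rhbdf2* (-0.27) and *Adam10* (0.22). In the difference they were *Il12a* (1.78), *Il27ra* (-1.28) and *Il6ra* (0.072).

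With the title number as a replicate block, 7, 7 and 2 members were called in M1 against M2 in wildtype, in *Mirc11-/-* and in the difference (7829, 7978 and 151 of all genes), and *Ebi3* (adjusted p = 0.040) and *Il27ra* (0.041) kept the called difference, while *Cish* (0.076) and *Nfkb2* (0.051) lost it. The numbers are not said to pair samples. Deviations of same-numbered M1 and M2 libraries correlated at -0.29 to 0.21, and 2 of 6 numbers matched best with their own. The genotypes share no number, so no paired analysis between them was possible.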
